A study of Homo sapiens with 12 samples.

Results

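The BCL2 family was read out in Jurkat cells, a human T cell leukaemia line, through 10 genes: the anti-apoptotic BCL2, BCL2L1 (BCL-XL) and MCL1; the BH3-only genes BCL2L11 (BIM), BBC3 (PUMA), PMAIP1 (NOXA), BID and BMF; and the effectors BAX and BAK1. They were chosen by gene symbol, and all 10 were found among the 43805 symbols that both deposited tables list. RNA was sequenced in bulk from 12 libraries in 4 groups of 3. The libraries labelled ZNF683 carry the genotype of doxycycline-induced ZNF683, the gene of the transcription factor Hobit, and their partners are labelled Mock. A second table holds the Hobit line with doxycycline at 1 ug/uL (Dox+) and without it (Dox-). Whether Mock cells were given doxycycline, whether a line is 1 clone, and whether libraries of a group came from separate cultures is not in the labels. The p-values therefore reflect spread between libraries, part of which may be technical. In bulk RNA, fewer cells with a transcript and less transcript per cell cannot be told apart.

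BCL2 family proteins decide whether the outer membrane of the mitochondria is opened. BAX and BAK1 form the pores that let cytochrome c out. BCL2, BCL-XL and MCL1 hold BAX, BAK1 and the BH3-only proteins in check, and the BH3-only proteins start the process either by occupying those guards or by engaging BAX and BAK1 directly. T cells lean on BCL2 when resting, while activated and leukaemic T cells also draw on MCL1 and BCL-XL. Jurkat cells are known to lack functional p53, the activator of BBC3, PMAIP1 and BAX, and Jurkat sublines are known to carry a BAX frameshift and to lack BAX protein. The values here are RNA per gene, so they do not separate splice forms with opposite activity, such as the long and short products of BCL2L1 and MCL1, and say nothing of protein.

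Values are TPM, a transcript abundance per length that sums to a nearly fixed total in each library. Depth is unknown. ZNF683 itself was low and did not separate the first pair of groups: its TPM were 1.17, 1.76 and 1.04 in ZNF683, against 0.715, 1.59 and 0.681 in Mock. It stood at 0.453, 0.774 and 0.571 TPM in Dox+, against 0.115, 0.239 and 0.451 TPM in Dox-. A pair of Dox- libraries stood apart. In Dox- library 1 a single long intergenic RNA gene, AL135790.1, took 50.7% of all TPM, against 6.65% to 10.5% in Dox+, which lowers every other TPM value in that library. In Dox- library 2 the heat shock gene HSPA6 reached 637 TPM, and it was at most 0.351 TPM in the 5 other libraries of that table. In the other table HSPA6 stood at 0.515, 0.399 and 0.618 TPM in ZNF683, against 6.85, 5.88 and 4.06 TPM in Mock (log2 change -2.11, limma adjusted p 0.0105), and its part in the member values there was not tested. A second scaling by the median of gene-wise ratios is given where it matters, with factors of 1.14, 1.12 and 1.05 in Dox+ and of 0.583, 1.224 and 1.18 in Dox-. All 8 T cell markers were at 1 TPM or more in all 12 libraries, and they summed to 5827, 5465 and 5390 TPM in Dox+, against 2502, 2362 and 5049 TPM in Dox-. Of 4 B cell markers 1 or 2 were at 1 TPM or more in every library: CD79A ran from 8.90 to 54.7 TPM and PAX5 from 0.356 to 4.14 TPM, while MS4A1 was at most 0.268 TPM. The B cell list summed to 37.7 to 55.0 TPM in ZNF683 and 40.8 to 58.2 TPM in Mock, and to 26.4 to 30.5 TPM in Dox+ and 10.4 to 24.9 TPM in Dox-. Myeloid and epithelial lists summed to at most 1.73 and 2.28 TPM. Of 3 fibroblast markers, COL1A1 alone reached 1 TPM in Dox- library 2, at 16.998 TPM. The fibroblast markers summed to 1.02, 1.501 and 1.15 TPM in Dox+, against 0.442, 17.2 and 1.498 TPM in Dox-. The part of these markers in the results was not tested. AL135790.1, HSPA6 and COL1A1 are named because of their values.

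BCL2L1, BID and BAX were low in the same Dox- libraries, so the 250 bases before their transcription start are shown. They are RefSeq sequences on GRCh38.p14, read 5′ to 3′ along the gene, at chr20:31723964-31724213 on the minus strand, chr22:17774470-17774719 on the minus strand and chr19:48954625-48954874 on the plus strand. The starts are those of RefSeq and can differ from the GENCODE gene ends given with each gene. Capitals mark matches, on either strand, to the 4 motifs searched.
BCL2L1: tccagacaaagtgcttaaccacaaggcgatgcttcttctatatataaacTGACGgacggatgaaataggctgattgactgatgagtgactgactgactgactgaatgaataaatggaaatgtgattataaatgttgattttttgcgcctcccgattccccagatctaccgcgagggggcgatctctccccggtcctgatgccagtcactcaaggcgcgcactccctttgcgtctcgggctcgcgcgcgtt
BID: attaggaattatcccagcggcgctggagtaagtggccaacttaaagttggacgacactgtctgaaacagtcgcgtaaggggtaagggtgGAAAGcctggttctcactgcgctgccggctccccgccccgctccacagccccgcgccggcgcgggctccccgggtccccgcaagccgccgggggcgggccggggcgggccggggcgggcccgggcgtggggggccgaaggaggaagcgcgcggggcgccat
BAX: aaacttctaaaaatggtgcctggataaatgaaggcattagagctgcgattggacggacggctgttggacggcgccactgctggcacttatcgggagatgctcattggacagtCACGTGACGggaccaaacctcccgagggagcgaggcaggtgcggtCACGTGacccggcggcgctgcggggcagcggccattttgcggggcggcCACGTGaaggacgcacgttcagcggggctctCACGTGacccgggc
The motifs were GAAAG, the core bound by Blimp-1, the close relative of Hobit; CACGTG, the E-box of MYC-type factors; TGTTTAC, a FOXO site; and TGACG, the core of the CRE bound by factors such as ATF4. Of 27305 promoters of the same length, 49.2% hold GAAAG, 6.49% CACGTG, 2.98% TGTTTAC and 21.7% TGACG. Of the 9 family members with a promoter in the table, 4 hold GAAAG (BCL2, BBC3, BID and BAK1), 2 hold CACGTG (BBC3 and BAX), 1 holds TGTTTAC (BCL2L11) and 5 hold TGACG (BCL2, BCL2L1, PMAIP1, BMF and BAX). None of the 4 motifs was found in all 3 promoters shown, and TGACG was found in those of BCL2L1 and BAX. The BAX promoter carries 4 CACGTG matches, which begin 138, 93, 45 and 14 bases before the start, and the first of them overlaps its TGACG match. BID carries GAAAG 161 bases before the start, and BCL2L1 carries TGACG 201 bases before it. A match describes the letters only and is not evidence of binding.

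The members covered a wide range of levels. BID, which caspase-8 cuts to link death receptors to the mitochondria, had the highest median, 283 TPM over the 12 libraries, with a range of 85.7 to 385 TPM. PMAIP1, whose product binds chiefly MCL1, followed at a median of 127 TPM and was below BID in 11 of 12 libraries. BCL2L1 was the main anti-apoptotic transcript, at a median of 72.0 TPM, and BAX (60.9 TPM), BAK1 (41.5 TPM) and MCL1 (37.2 TPM) came next. Neighbours in that stretch were not ordered the same way everywhere: BCL2L1 was above BAX in 9 of 12 libraries, BAX above BAK1 in 9, and BAK1 above MCL1 in 6. A gap separated these genes from BCL2L11 (7.23 TPM), BBC3 (4.33 TPM), BMF (2.30 TPM) and BCL2 (1.96 TPM). BCL2 was therefore the lowest of the 10 by median, and BMF was above it in 7 of 12 libraries. The tables were normalized apart, so a level set across them is a description.

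**Figure D1:**
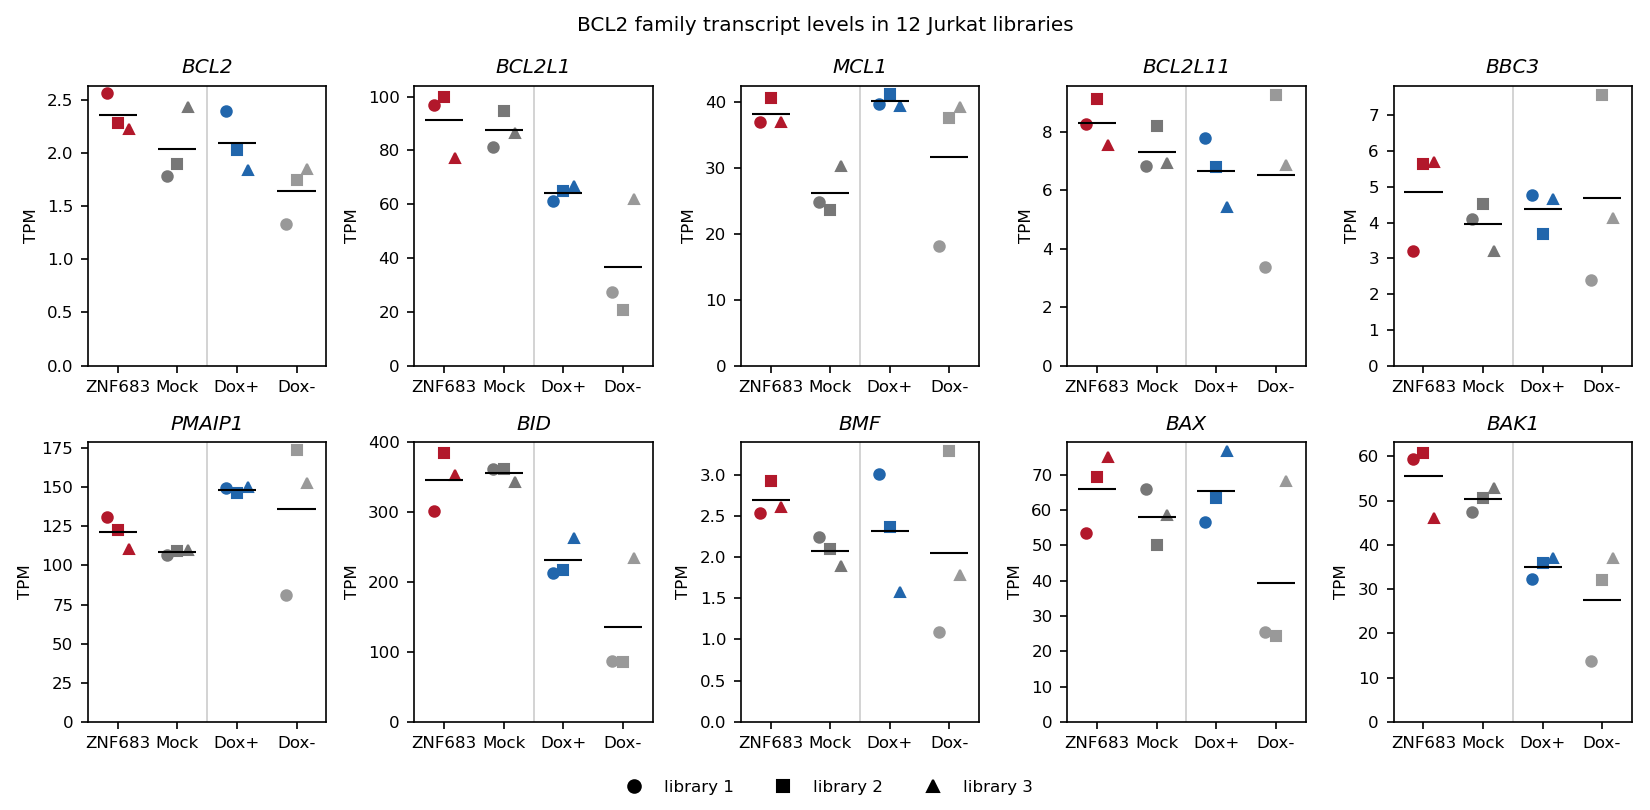
TPM of the 10 BCL2 family genes (y axis, linear, from 0) in the ZNF683, Mock, Dox+ and Dox- groups (x axis); each symbol is 1 library, the shape gives its number and the line is the group mean. MCL1 is higher in all ZNF683 libraries (36.9 to 40.6 TPM) than in all Mock libraries (23.6 to 30.2 TPM), and BCL2L1, BID and BAX are low in Dox- libraries 1 and 2 and not in library 3.

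For ZNF683 against Mock, none of the 10 members passed an adjusted p of 0.05 in limma, where 5 of 16588 genes tested (0.0301%) did. At an unadjusted p under 0.05 there was 1 member, MCL1, against 13.0% of all genes. In 3 of the 10 (MCL1, PMAIP1 and BMF) all ZNF683 libraries lay above all Mock libraries, against 8.71% of genes, and in none did they lie below, against 8.51%. The log2 change was above 0 for 9 of 10 members, against 54.9% of genes, and its median was 0.16, against 0.03 over all genes. With median-of-ratios scaling 0.0422% of genes and no member passed, and at an unadjusted p under 0.05 there were 2 members, MCL1 and BMF, against 14.5% of genes. The members without overlap were then MCL1 and BMF, 2 of 10 against 11.8% of genes, none of 10 was lower in every ZNF683 library, against 7.24%, and all 10 changes were above 0, against 61.9%.

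MCL1 (chr1:150574551-150579738, minus strand), a short-lived guard that binds BIM, NOXA and BAK1, had the largest log2 change of the 10 members. It stood at 36.9, 40.6 and 36.9 TPM in ZNF683 libraries, against 24.8, 23.6 and 30.2 TPM in Mock. The groups did not overlap, and the difference between the means was larger than either SD: the mean was 38.1 ± 2.12 TPM in ZNF683 and 26.2 ± 3.55 TPM in Mock (SD, n = 3 each). The log2 change was 0.53 ± 0.12 (standard error; 95% interval 0.26 to 0.81), with a limma adjusted p of 0.271, which ranged from 0.0742 to 0.743 over the other settings. The exact permutation p was 0.1, the smallest that 3 against 3 libraries allow. With median-of-ratios scaling MCL1 stood at 37.5, 41.7 and 36.7 in ZNF683, against 26.2, 21.7 and 28.97 in Mock, again without overlap.

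The other anti-apoptotic genes did not separate. BCL2L1 (chr20:31664452-31723989, minus strand) stood at 96.7, 99.998 and 77.0 TPM in ZNF683, against 81.1, 94.8 and 86.4 TPM in Mock. Its lowest ZNF683 library lay below all Mock libraries, and the log2 change was 0.05 ± 0.13 (95% interval -0.24 to 0.35). BCL2 (chr18:63123346-63320128, minus strand), the target of venetoclax, stood at 2.57, 2.28 and 2.23 TPM in ZNF683, against 1.78, 1.90 and 2.43 TPM in Mock. Mock library 3 lay inside the ZNF683 range, and the log2 change was 0.15 ± 0.14.

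Among the BH3-only genes, PMAIP1 (chr18:59899948-59904306, plus strand) stood at 131, 123 and 110.2 TPM in ZNF683, against 106, 109 and 109.9 TPM in Mock. The lowest ZNF683 library cleared the highest Mock library by a small margin, and the groups overlapped with median-of-ratios scaling. BMF (chr15:40087890-40108892, minus strand), which answers loss of attachment and cytoskeletal stress, stood at 2.54, 2.92 and 2.61 TPM in ZNF683, against 2.24, 2.09 and 1.89 TPM in Mock. These groups stayed apart under both scalings, with a log2 change of 0.26 ± 0.13 and a limma adjusted p of 0.408. BCL2L11 (chr2:111119378-111168447, plus strand), which engages every guard, stood at 8.24, 9.12 and 7.52 TPM in ZNF683, against 6.83, 8.19 and 6.93 TPM in Mock. Its groups overlapped, and it shares its locus with MIR4435-2HG, a long RNA gene on the opposite strand that reached 12.1 to 50.6 TPM, so reads could be split between them unless strand was kept. BBC3 (chr19:47220822-47232766, minus strand), the p53 target that binds all guards, stood at 3.21, 5.65 and 5.69 TPM in ZNF683, against 4.10, 4.53 and 3.21 TPM in Mock. It varied more within the ZNF683 group than between groups. BID (chr22:17734138-17774770, minus strand) stood at 302, 385 and 353 TPM in ZNF683, against 362, 362 and 343 TPM in Mock. It was the only member whose change lay below 0 in TPM as deposited, at -0.04 ± 0.12, and it turned to 0.01 with median-of-ratios scaling.

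The effectors overlapped as well. BAX (chr19:48954815-48961798, plus strand) stood at 53.6, 69.5 and 75.0 TPM in ZNF683, against 65.9, 50.05 and 58.5 TPM in Mock, a log2 change of 0.18 ± 0.16. BAK1 (chr6:33572547-33580293, minus strand) stood at 59.5, 60.8 and 46.1 TPM in ZNF683, against 47.5, 50.6 and 52.9 TPM in Mock, a log2 change of 0.13 ± 0.13. Neither gap exceeded the spread of its ZNF683 libraries.

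**Figure D2:**
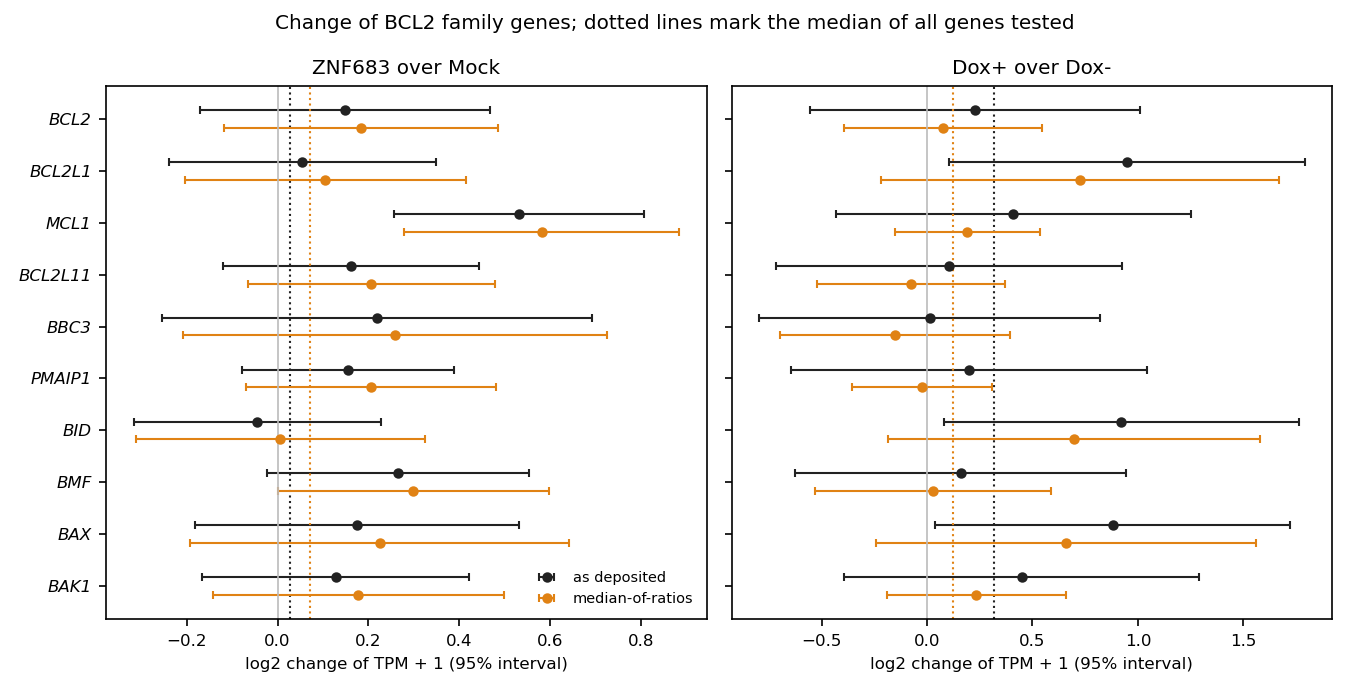
Log2 change of TPM + 1 with its 95% interval (x axis) for each member (rows), ZNF683 over Mock on the left and Dox+ over Dox- on the right, for TPM as deposited (black) and median-of-ratios scaled values (orange); dotted lines give the median of all genes tested, 0.03 on the left and 0.32 on the right as deposited. On the left MCL1 alone has an interval clear of 0 as deposited. On the right the intervals are wide and BCL2L1, BID and BAX lie highest. Their intervals are clear of 0 as deposited and include 0 with median-of-ratios scaling.

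For Dox+ against Dox-, again no member passed an adjusted p of 0.05 in limma, where 60 of 15148 genes (0.396%) did. At an unadjusted p under 0.05 there were 3 members, BCL2L1, BID and BAX, against 6.34% of genes. In 1 member, MCL1, all Dox+ libraries lay above all Dox- libraries, against 7.91% of genes, and in none below, against 0.891%. All 10 changes were above 0, but so were 79.1% of all genes, and the median of the members, 0.32, equalled that of all genes, 0.32. With median-of-ratios scaling both medians were 0.13, and 7 of 10 changes were above 0, against 64.3% of genes. The median of all genes thus moved with the scaling, and changes of single members are also given relative to it. With that scaling no member passed at an adjusted p of 0.05, against 0.00660% of genes, nor at an unadjusted p under 0.05, against 3.04%. The members without overlap were MCL1 and BCL2L1, 2 of 10 against 9.34% of genes, and none was lower in every Dox+ library, against 3.72%.

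BCL2L1, BID and BAX gave the largest changes, and as deposited they rested on a pair of libraries. BCL2L1 stood at 61.0, 65.1 and 66.9 TPM in Dox+, against 27.3, 20.9 and 61.8 TPM in Dox-. Dox- libraries 1 and 2 were low, while library 3 lay between the lowest and the next Dox+ library. BID had the same low pair of libraries, with 213, 218 and 263 TPM in Dox+, against 87.9, 85.7 and 235 TPM in Dox-. BAX had it too, with 56.6, 63.4 and 76.6 TPM in Dox+, against 25.3, 24.3 and 68.2 TPM in Dox-. The log2 changes were 0.95 ± 0.43, 0.92 ± 0.43 and 0.88 ± 0.43, with limma adjusted p of 0.736, 0.737 and 0.737 (over the other settings 0.0342 to 0.995, 0.0342 to 0.996 and 0.0342 to 0.995). Relative to the median of all genes they were 0.63, 0.60 and 0.56, and with median-of-ratios scaling 0.60, 0.57 and 0.53. Without Dox- library 3 all 3 passed, at log2 changes of 1.39, 1.40 and 1.35 and a limma adjusted p of 0.0342 each, in a fit that called 2788 of 15127 genes (18.4%). With Dox- libraries 1 and 2 left out, a choice made after the data were seen that leaves a single Dox- library, they were 0.06, -0.03 and -0.07. With median-of-ratios scaling and all libraries the changes were 0.72, 0.70 and 0.66. With that scaling and Dox- library 2 left out, a choice also made after the data were seen, they were 0.23, 0.26 and 0.23. No searched motif was found in all 3 of the promoters printed for these genes.

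The Dox- libraries also differed from each other member by member once scaled. Set against the Dox+ mean, as Dox- minus Dox+ on the log2 scale with median-of-ratios scaling, Dox- library 2 lay at -1.71 for BCL2L1, -1.56 for BID and -1.52 for BAX, where the median gene lay at -0.28. Those values are at percentiles 2.94, 4.30 and 4.80 of the genes tested. In the same library BAK1 lay at -0.27, MCL1 at -0.23 and BCL2 at -0.25, beside the median gene. PMAIP1 (0.08), BMF (0.27), BCL2L11 (0.30) and BBC3 (0.54) were above the Dox+ mean there, as were 36.4% of all genes, and lay at percentiles 67.3, 75.3, 76.2 and 83.3. In library 1, where the median gene lay at -0.05, BID (-0.46), BAX (-0.43) and BCL2L1 (-0.31) were low by less than in library 2, at percentiles 6.29, 7.78 and 16.04. BAK1 was as low there, at -0.42 and percentile 8.15, although it lay at the median in library 2. Library 3 stayed between -0.28 and -0.01 for all 10. HSPA6 and COL1A1 were high in the same Dox- library 2. With the same scaling the T cell markers summed to 5091, 4873 and 5131 in Dox+, against 4290, 1930 and 4278 in Dox-, lowest in that library too. The part of these genes in the pattern was not tested.

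**Figure D3:**
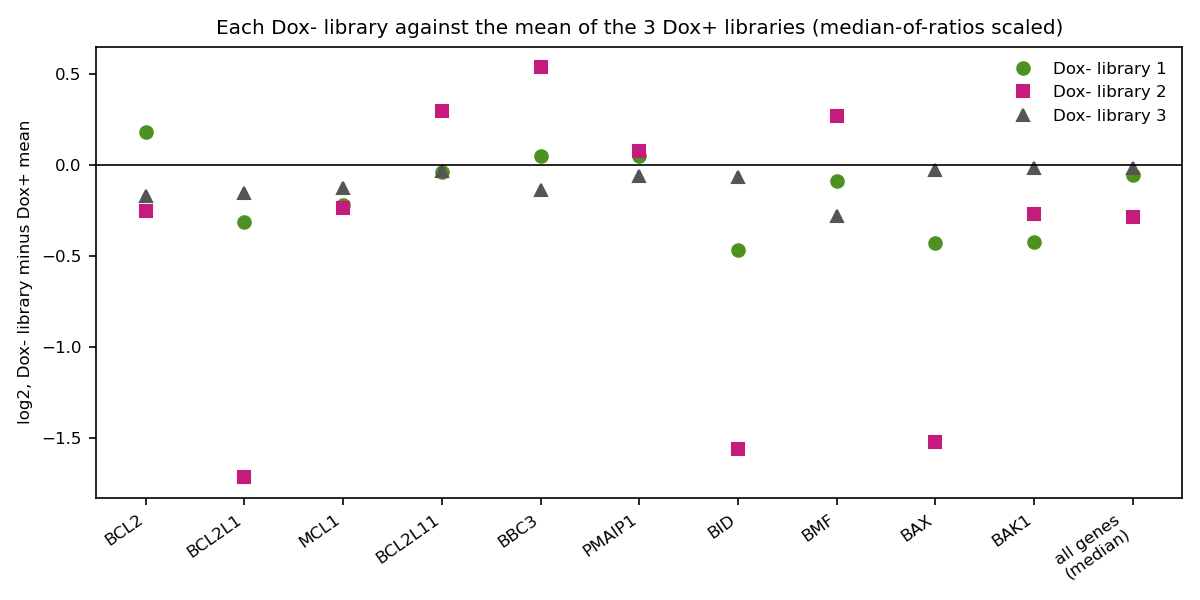
Each Dox- library minus the mean of the 3 Dox+ libraries on the log2 scale after median-of-ratios scaling (y axis) for each member and for the median of all genes tested (x axis); colour and shape give the Dox- library. BCL2L1, BID and BAX lie at -1.71, -1.56 and -1.52 in Dox- library 2, while library 3 lies between -0.28 and -0.01 for every member.

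MCL1 stood at 39.7, 41.2 and 39.4 TPM in Dox+, against 18.1, 37.6 and 39.1 TPM in Dox-. The groups did not overlap, but Dox- library 3 came close to the lowest Dox+ library, and the log2 change was 0.41 ± 0.43 with a limma adjusted p of 0.748. Relative to the median of all genes it was 0.09. Without Dox- library 1 the change was 0.06, and without AL135790.1 it was 0.11. With median-of-ratios scaling MCL1 stood at 34.7, 36.8 and 37.5 in Dox+, against 31.1, 30.7 and 33.2 in Dox-, a log2 change of 0.19 ± 0.15, or 0.07 relative to the median of all genes. As in ZNF683 against Mock, the groups stayed apart under both scalings. BCL2 stood at 2.39, 2.03 and 1.84 TPM in Dox+, against 1.33, 1.74 and 1.85 TPM in Dox-, and the groups overlapped.

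In TPM as deposited the remaining members spread more within Dox- than between the groups. PMAIP1 stood at 149, 146 and 149.9 TPM in Dox+, against 81.1, 174 and 152 TPM in Dox-. BCL2L11 stood at 7.76, 6.77 and 5.43 TPM in Dox+, against 3.38, 9.26 and 6.87 TPM in Dox-. As deposited, both were lowest in Dox- library 1 and highest in Dox- library 2, so the Dox- values enclosed all Dox+ values. BBC3 (4.78, 3.69 and 4.67 TPM in Dox+, against 2.40, 7.56 and 4.13 TPM in Dox-) had the same shape. So did BMF, at 3.01, 2.36 and 1.58 TPM in Dox+, against 1.09, 3.28 and 1.79 TPM in Dox-. After median-of-ratios scaling none of these genes kept that shape. PMAIP1 then stood at 130.5, 130.4 and 142.7 in Dox+, against 139.1, 142.2 and 129.2 in Dox-. BCL2L11 then stood at 6.78, 6.04 and 5.17 in Dox+, against 5.79, 7.57 and 5.82 in Dox-. For BAK1 the values were 32.3, 35.9 and 36.9 TPM in Dox+, against 13.6, 31.96 and 37.0 TPM in Dox-, with library 1 alone far below. The signs of PMAIP1, BCL2L11 and BBC3 turned with median-of-ratios scaling, to -0.02, -0.08 and -0.15. Relative to the median of all genes as deposited, PMAIP1, BCL2L11, BBC3 and BMF lay at -0.12, -0.21, -0.30 and -0.16, BCL2 at -0.09 and BAK1 at 0.13.

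The difference between the effects in the 2 tables was tested directly over the 12 libraries. No member passed, against 2 of 14468 genes (0.0138%), and 1 member, BID, was at an unadjusted p under 0.05, against 3.75%. As ZNF683 effect minus doxycycline effect, BID gave -0.97 ± 0.45, BCL2L1 -0.89 ± 0.44 and BAX -0.70 ± 0.46, each with a limma adjusted p of 0.876. MCL1 gave 0.12 ± 0.39 (95% interval -0.70 to 0.95) as deposited and 0.39 ± 0.19 with median-of-ratios scaling, so neither a like nor an unlike MCL1 effect was shown. Without Dox- library 3, BID, BCL2L1 and BAX passed here too, at -1.44, -1.34 and -1.18 with limma adjusted p of 0.0151, 0.0151 and 0.0184, in a fit that called 2550 of 14423 genes (17.7%). Their adjusted p over the other settings reached 0.999, 0.999 and 0.9999.

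The balance between members can be read inside each library, where scaling cancels. A total of 8 pairs were compared in each table, 16 exact permutation tests in all, and the smallest adjusted p was 0.32. All 4 pairs with MCL1 below the line were lower in every ZNF683 library than in every Mock library. BCL2L1/MCL1 was 2.62, 2.46 and 2.09 in ZNF683, against 3.28, 4.03 and 2.86 in Mock. PMAIP1/MCL1, the ratio of NOXA to its main partner, was 3.55, 3.02 and 2.99 in ZNF683, against 4.30, 4.64 and 3.64 in Mock. The log2 differences were -0.49 and -0.39, and those of BCL2L11/MCL1 and BCL2/MCL1 were -0.37 and -0.33, each with an exact p of 0.1 and an adjusted p of 0.32. The 4 ratios share MCL1, so they are not separate observations. MCL1 itself did not overlap between ZNF683 and Mock. The share of all genes whose ratio to MCL1 separates these groups was not computed, so no shift beyond MCL1 itself was shown. In the doxycycline table PMAIP1/MCL1 was 3.77, 3.55 and 3.80 in Dox+, against 4.47, 4.63 and 3.89 in Dox-, without overlap and with a log2 difference of -0.22 (exact p 0.1, adjusted p 0.32). BCL2L1/MCL1 overlapped there and lay on the other side of 0 from its difference in the first table. It was 1.54, 1.58 and 1.70 in Dox+, against 1.502, 0.556 and 1.58 in Dox- (log2 difference 0.55, exact p 0.2, adjusted p 0.457), and without Dox- library 2 the difference was 0.06. BCL2L11/MCL1 and BCL2/MCL1 overlapped too, at -0.29 and -0.07. BAX/BAK1, the ratio of the effectors, was 0.901, 1.14 and 1.63 in ZNF683, against 1.39, 0.989 and 1.11 in Mock, and overlapped.

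**Figure D4:**
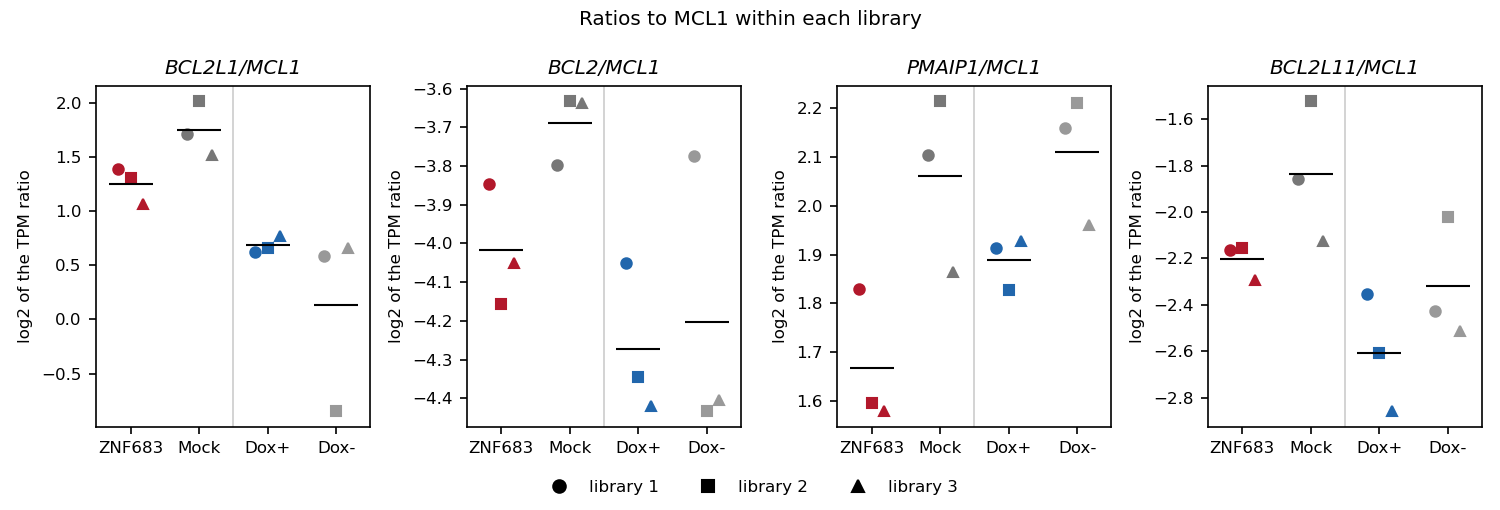
Log2 of the TPM ratio of BCL2L1, BCL2, PMAIP1 and BCL2L11 to MCL1 (y axes, each with its own range) in the ZNF683, Mock, Dox+ and Dox- groups (x axis); each symbol is 1 library and the line is the group mean. All 4 ratios are lower in every ZNF683 library than in every Mock library, and only PMAIP1/MCL1 of these 4 also separates Dox+ from Dox-.

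As a share of the summed TPM of the 10 members, MCL1 made up 5.08% to 5.30% in ZNF683 and 3.33% to 4.34% in Mock. BID made up 43.4% to 49.3% in ZNF683 and 49.3% to 51.6% in Mock, and 37.3% to 40.7% in Dox+ and 21.6% to 38.6% in Dox-. The lowest BID share and the highest PMAIP1 share, 43.9%, fell in the same library, Dox- library 2. The 3 anti-apoptotic genes summed to 0.305, 0.272 and 0.242 of the 5 BH3-only genes in ZNF683, against 0.223, 0.247 and 0.256 in Mock. That ratio was 0.273, 0.287 and 0.255 in Dox+, against 0.266, 0.215 and 0.257 in Dox-, and overlapped in both tables.

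Of 10 further BCL2 family genes, BAD (24.8 to 147 TPM), BIK (11.7 to 47.9 TPM) and BCL2L13 (18.5 to 48.5 TPM) were expressed in every library. BCL2A1, a guard induced by NF-κB, stayed at or below 0.705 TPM, BCL2L2 (BCL-W) at or below 1.72 TPM and HRK at or below 1.44 TPM. The highest values of BCL2L10, BOK, BCL2L14 and BCL2L15 were 0.515, 1.20, 1.62 and 1.01 TPM. None of the 4 tested for ZNF683 (all genes 0.0301%) and of the 3 tested for doxycycline (0.396%) passed. At an unadjusted p under 0.05 there were 0 in both, against 13.0% and 6.34% of all genes. BIK, a BH3-only protein of the endoplasmic reticulum, stood at 36.6, 42.2 and 41.9 TPM in ZNF683, against 47.9, 43.8 and 47.1 TPM in Mock. These groups did not overlap as deposited and did with median-of-ratios scaling. As deposited, 1 of the 4 tested was thus lower in every ZNF683 library, against 8.51% of genes, and 0 were higher, against 8.71%. In the doxycycline table BIK stood at 22.7, 29.9 and 37.1 TPM in Dox+, against 13.3, 11.7 and 37.5 TPM in Dox-. As deposited it thus had the same low pair of Dox- libraries as BCL2L1, BID and BAX. Scaled by median of ratios, BIK stood at 19.8, 26.6 and 35.3 in Dox+, against 22.9, 9.55 and 31.8 in Dox-. Only Dox- library 2 then lay below the Dox+ values.

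Genes acting at or after the mitochondrial step, a list of 16 that includes VDAC1, VDAC2 and VDAC3, held no call in either comparison. Of them 2 were at an unadjusted p under 0.05 for ZNF683 (all genes 13.0%) and 0 for doxycycline (6.34%). With median-of-ratios scaling these counts were 3 for ZNF683 (all genes 14.5%) and 1 for doxycycline (3.04%). For ZNF683 against Mock 13 of 16 changes were above 0, against 54.9% of all genes, with a median of 0.15 against 0.03. CASP9, HTRA2 and BIRC2, 3 of 16, were higher in every ZNF683 library, against 8.71% of genes, and APAF1 alone was lower, against 8.51%. With median-of-ratios scaling 7 of 16 were higher, against 11.8% of genes, and 0 lower, against 7.24%. BIRC2 and APAF1 are named because of these counts. CASP9, the initiator caspase of the apoptosome, stood at 6.89, 8.36 and 6.35 TPM in ZNF683, against 4.38, 4.63 and 5.94 TPM in Mock. It was also higher in every Dox+ library, at 5.60, 5.24 and 5.10 TPM in Dox+, against 2.24, 2.72 and 3.86 TPM in Dox-. The log2 changes were 0.46 ± 0.15 and 0.70 ± 0.41, with limma adjusted p of 0.327 and 0.737. With median-of-ratios scaling they were 0.50 ± 0.15 and 0.52 ± 0.21, again without overlap, with limma adjusted p of 0.283 and 0.688. CYCS, the gene of cytochrome c, gave 0.27 ± 0.12 for ZNF683, and HTRA2, a mitochondrial protease that relieves caspase inhibition, gave 0.77 ± 0.43 for doxycycline. HTRA2 stood at 59.6, 59.1 and 63.8 TPM in Dox+, against 25.3, 27.6 and 62.7 TPM in Dox-, and its groups overlapped. Its change was 0.54 ± 0.31 with median-of-ratios scaling. For doxycycline 14 of 16 changes of the list were above 0, against 79.1% of all genes, with a median of 0.46 against 0.32 over all genes, and of 0.23 against 0.13 with median-of-ratios scaling. As deposited 3 of 16 were higher in every Dox+ library, against 7.91% of genes, and 0 were lower, against 0.891%. Once scaled, 2 of 16 were higher, against 9.34% of genes, and 0 lower, against 3.72%.

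Among 12 regulators of the members, 11 were tested and none was called, with 3 at an unadjusted p under 0.05 for ZNF683 (all genes 13.0%) and 1 for doxycycline (6.34%). HUWE1, the ubiquitin ligase (MULE) that marks MCL1 for destruction, stood at 12.7, 14.0 and 12.7 TPM in ZNF683, against 17.9, 18.8 and 17.4 TPM in Mock. Its groups did not overlap, with a log2 change of -0.43 ± 0.10 and a limma adjusted p of 0.271. USP9X, the deubiquitinase that stabilizes MCL1, stood at 5.83, 5.76 and 5.85 TPM in ZNF683, against 7.03, 8.07 and 7.45 TPM in Mock. It too was lower in every ZNF683 library, at -0.32 ± 0.11, so RNAs for enzymes of opposite action on MCL1 protein lay on the same side. JUN, a factor that can induce BCL2L11, stood at 7.50, 8.49 and 7.97 TPM in ZNF683, against 7.05, 5.93 and 6.41 TPM in Mock, also without overlap. Of the 11 tested, 2 were higher in every ZNF683 library, against 8.71% of genes, and 2 were lower, against 8.51%. Once scaled by median of ratios, 1 was higher, against 11.8% of genes, and 2 were lower, against 7.24%. In the doxycycline table DDIT3 (CHOP), an inducer of BCL2L11 and BBC3 in endoplasmic reticulum stress, stood at 19.2, 14.3 and 15.3 TPM in Dox+, against 12.5, 171 and 22.1 TPM in Dox-. JUN, at 4.59, 4.90 and 5.32 TPM in Dox+, against 1.85, 54.6 and 3.91 TPM in Dox-, peaked in the same Dox- library 2, where MYC was lowest. MYC stood at 132, 132 and 211 TPM in Dox+, against 80.2, 31.8 and 273 TPM in Dox-. Changes were above 0 for 8 of 11 regulators for ZNF683, against 54.9% of all genes, and for 6 of 11 for doxycycline, against 79.1%. With median-of-ratios scaling the doxycycline count was 2 of 11, against 64.3%. The medians of the list were 0.02 for ZNF683, against 0.03 over all genes, and 0.04 for doxycycline, against 0.32 over all genes. With median-of-ratios scaling the doxycycline median was -0.16, against 0.13 over all genes.

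Of 7 p53 target genes none was called, with 3 at an unadjusted p under 0.05 for ZNF683 (all genes 13.0%) and 1 for doxycycline (6.34%). TP53I3 was higher in every ZNF683 library, at 13.5, 15.2 and 14.0 TPM in ZNF683, against 9.77, 9.20 and 13.2 TPM in Mock (log2 change 0.39 ± 0.14, limma adjusted p 0.346). CDKN1A (p21) stood at 2.44, 2.10 and 1.77 TPM in Dox+, against 0.536, 12.4 and 1.38 TPM in Dox-, with its peak again in Dox- library 2. SESN1 was higher in every ZNF683 library as well, with a log2 change of 0.27 ± 0.11, while TP53INP1 overlapped at -0.49 ± 0.20. These made 2 of 7 higher in every ZNF683 library, against 8.71% of genes, and 0 were lower, against 8.51%. For doxycycline TP53I3 gave 1.04 ± 0.42 and SESN1 0.62 ± 0.42, each with overlapping groups. TP53I3 stood at 7.90, 8.79 and 11.05 TPM in Dox+, against 3.44, 1.32 and 10.8 TPM in Dox-. SESN1 stood at 8.99, 9.65 and 10.3 TPM in Dox+, against 4.57, 4.69 and 9.40 TPM in Dox-. As deposited both were low in Dox- libraries 1 and 2. Scaled by median of ratios, SESN1 stood at 7.85, 8.60 and 9.85 in Dox+, against 7.84, 3.83 and 7.96 in Dox-. TP53I3 then stood at 6.90, 7.83 and 10.5 in Dox+, against 5.90, 1.07 and 9.14 in Dox-. Changes were above 0 for 4 of 7 for ZNF683, against 54.9% of all genes, and for 6 of 7 for doxycycline, against 79.1%, both near the share of all genes. With median-of-ratios scaling the counts were 5 of 7 for ZNF683, against 61.9%, and 2 of 7 for doxycycline, against 64.3%. The list's median was 0.19 for ZNF683, against 0.03 over all genes. For doxycycline it was 0.13, against 0.32, and -0.06 with median-of-ratios scaling, against 0.13.

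Across the 12 libraries and 14468 genes, the genes that ran most like MCL1 were SEPTIN11 (Pearson r 0.976), FAM219A (0.955) and STK17A (0.951). For PMAIP1 they were RAB6A (0.954), EZH2 (0.934) and RAB5A (0.930), and for BCL2 TMED7 (0.947), PHF2 (0.936) and GOLM2 (0.928). Likeness was taken on the log2 of median-of-ratios scaled TPM + 1 after subtraction of each table's mean. The libraries share that scaling and their tables, so these values are descriptions. Within the ZNF683 and Mock table the r of SEPTIN11 with MCL1 was 0.991, and it was 0.885 within the doxycycline table. Without Dox- library 2 it was 0.982 over the other libraries.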

How the data were processed

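RNA was measured in 12 bulk Jurkat libraries, 3 per group. Per the labels' protocols, cells were grown in RPMI with fetal calf serum, RNA was purified on Qiagen RNeasy columns and libraries used a NEBNext low-input kit. Per the submitters' processing notes the tools include DESeq2 1.22.2 and kallisto 0.46.0, their use unstated; build and transcript set are not given in the sources used here. TPM were deposited in 2 tables, of 55514 and 44389 gene symbols, and each library sums to 992727 to 998497 TPM. TPM carries no depth, so no counting interval is given.

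Groups came from titles and genotype labels. Within each table, genes averaging 1 TPM or more in its 6 libraries entered limma 3.58.1 in R 4.3.3 (log2 of TPM + 1, mean-variance trend, two-sided, Benjamini-Hochberg over all genes, threshold 0.05); fold changes on this scale understate those of low genes. In the doxycycline fit as deposited the prior degrees of freedom were unlimited. Each gene's spread in that fit was that of genes of its level, and its standard errors are nearly equal. The prior degrees of freedom were 3.13 with median-of-ratios scaling and 2.94 without Dox- library 3, so this does not hold for those fits. The difference of effects was a contrast over all libraries. Ratios and single genes had two-sided exact permutation tests. Alternatives were a pseudocount of 0.1, no filter, median-of-ratios scaling, removal of AL135790.1, robust moderation, a replicate block and leaving out libraries. The procedure was tested on simulated data. The named genes are the 10 members, ZNF683, all further family genes by level, and up to 3 genes per list and comparison with the smallest p. Some genes that this rule names are not reported here. The members, lists, motifs and tests were chosen with earlier results of these data known. Positions are GENCODE 29 on GRCh38; promoters are RefSeq GRCh38.p14, matched for 9 of 10 members. Genes sharing sequence or strand-overlapping loci may exchange reads.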

Additional observations from a re-analysis of the deposited data

How the results depend on the processing

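No member of the BCL2 family was called in ZNF683 against Mock under any of the 12 alternatives, and 3 members, BCL2L1, BID and BAX, were called in Dox+ against Dox- and in the difference of effects without Dox- library 3 only, in fits that called 18.4% and 17.7% of all genes. The number of genes called for ZNF683 against Mock was 5, and it was 3 with a pseudocount of 0.1, 0 without a filter, 8 with robust moderation, 0 with the replicate block and 0 (without Mock library 2) to 49 (without ZNF683 library 1) when 1 library was left out. For doxycycline it was 60, and it was 0 without a filter, 1 with median-of-ratios scaling, 0 without AL135790.1, 23 with robust moderation, 34 with the replicate block and 0 (without Dox- library 1) to 2788 (without Dox- library 3) when 1 library was left out; with Dox- libraries 1 and 2 left out it was 0, in a fit with 1 Dox- library whose spread comes from the Dox+ libraries and is assumed for it, with 545 genes at an unadjusted p under 0.05, and with scaling and Dox- library 2 left out it was 1, both choices made after seeing the data. The members called with 1 library left out ranged from 0 to 3. Deviations of same-numbered libraries from their group means correlated at -0.211, 0.0679 and -0.252 for ZNF683 and Mock. For Dox+ and Dox- they correlated at 0.0763, 0.0546 and 0.362. With 3 libraries per group, and with Dox- libraries 1 and 2 apart, these values cannot show whether replicate numbers pair the libraries. The block called no member. Without read depth the counting error of low genes such as BCL2 and BMF is unknown.

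Several values changed sign, and the cause was not tested. Not near 0 at first were the doxycycline changes of BID (0.92), BAX (0.88) and BAK1 (0.45) and the difference of effects of BAX (-0.70) and BAK1 (-0.32). Nor was the doxycycline difference of the log2 ratio BMF/BCL2L1 (-0.70). With median-of-ratios scaling BID turned to 0.0062 for ZNF683, and BBC3, BCL2L11 and PMAIP1 to -0.15, -0.077 and -0.025 for doxycycline. Without AL135790.1 the doxycycline changes of BBC3, BCL2L11, BMF and PMAIP1 were -0.23, -0.15, -0.027 and -0.11. With Dox- libraries 1 and 2 left out, BAK1, BAX, BCL2L11, BID and PMAIP1 were -0.080, -0.069, -0.051, -0.030 and -0.038, and with scaling and Dox- library 2 left out BCL2 was -0.011. In the difference of effects BCL2 turned to 0.11 and PMAIP1 to 0.23 with scaling, to 0.10 and 0.24 without AL135790.1, to 0.19 and 0.20 with scaling and Dox- library 2 left out, and to 0.037 and 0.19 with Dox- libraries 1 and 2 left out, where BAK1 and BAX turned to 0.21 and 0.24. With a pseudocount of 1 the log2 ratio BCL2L11/BCL2 for ZNF683 was 0.012. Where leaving out 1 library in turn changed a sign, the lowest and highest values are given. For ZNF683 against Mock these ranges were -0.015 to 0.17 for BCL2L1 and -0.12 to 0.051 for BID. For doxycycline they were -0.31 to 0.36 for BBC3, -0.24 to 0.37 for BCL2L11, -0.082 to 0.43 for BMF and -0.13 to 0.41 for PMAIP1. For the difference of effects they were -0.58 to 0.10 for BAK1, -0.14 to 0.53 for BBC3, -0.14 to 0.012 for BCL2, -0.21 to 0.40 for BCL2L11, -0.17 to 0.35 for BMF, -0.064 to 0.47 for MCL1 and -0.26 to 0.29 for PMAIP1. For log2 ratios in ZNF683 against Mock they were -0.18 to 0.25 for BAX/BAK1, -0.049 to 0.53 for BBC3/BCL2L1 and -0.21 to 0.090 for BCL2L11/BCL2. For log2 ratios under doxycycline they were -0.18 to 0.15 for BCL2/MCL1, -0.49 to 0.047 for BCL2L11/BCL2 and -1.19 to 0.032 for BMF/BCL2L1.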
